A study of Mus musculus with 8 samples.

Results

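Sperm carry their own versions of several glycolytic enzymes, and the genes for them are read in germ cells. Read counts and poly(A) tail lengths are described here for 10 glycolysis genes of the mouse testis: the germ-cell isozymes Ldhc, Pgk2 and Gapdhs, and 7 genes whose products serve most tissues, Ldha, Ldhb, Pgk1, Gapdh, Aldoa, Pgam1 and Eno1, called somatic below. They were chosen by symbol, with no measured value in the rule, and every transcript listed under a symbol was kept (the tables write the symbols in lower case, such as ldhc, pgk2, gapdhs, ldha and gapdh). They make up 19 of 2783 transcripts, 10 of 2243 gene symbols and 6940 of 621202 reads, with 7 transcripts from the germ-cell isozymes and 12 from the somatic genes.

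RNA came from whole testes of adult male mice that were either Tent5c wt/wt (wt) or Tent5c dcat/dcat (dcat), the latter with both copies of the poly(A) polymerase TENT5C catalytically dead. Mice of each genotype received a single injection of busulfan at 20 mg/kg or its vehicle, and testes were taken 4 weeks later. Busulfan, an alkylating agent, is toxic to proliferating germ cells and was given here to enrich the somatic cells of the testis. Each of the 4 groups (wt vehicle, wt busulfan, dcat vehicle, dcat busulfan) had 2 mice with 1 library each. In Nanopore direct RNA sequencing each read is 1 RNA molecule with its own tail length, so reads of different genes were compared without a length correction.

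Lactate dehydrogenase converts pyruvate and lactate, phosphoglycerate kinase (PGK) makes ATP from 1,3-bisphosphoglycerate, and glyceraldehyde-3-phosphate dehydrogenase (GAPDH) makes that substrate. Each has a germ-cell form: LDHC; PGK2, from an intronless gene that arose by retrotransposition of the X-linked Pgk1 and is read while the X chromosome is silent in meiosis; and GAPDHS, which is bound to the fibrous sheath of the sperm tail. Deadenylases shorten the poly(A) tail of an mRNA in the cytoplasm, and polymerases such as TENT5C can lengthen it again.

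The 3′ ends of the member mRNAs are shown first, because the tail is added there. These are the last 30 bases of the transcript of each gene with the most reads, from GENCODE vM21 on GRCm38, with the polyadenylation hexamer in capitals. The ends lie in the last exon, at chr7:46878113-46878142 on the plus strand for Ldhc, chr17:40207015-40207044 (minus) for Pgk2, chr7:30729775-30729804 (minus) for Gapdhs, chr7:46855598-46855627 (plus) for Ldha, chrX:106203670-106203699 (plus) for Pgk1 and chr6:125161853-125161882 (minus) for Gapdh.
Ldhc: tATTAAAggcaaccaccaccaggcccagct
Pgk2: ctATTAAAgaagtgagctaagtaagttgaa
Gapdhs: caatgaAATAAAaacgagaatgcgcacagc
Ldha: tgtcatgccaAATAAAaccttgaacagtga
Pgk1: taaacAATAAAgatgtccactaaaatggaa
Gapdh: gaataccatcAATAAAgttcgctgcaccca

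Ldhc and Pgk2 end with the variant ATTAAA and lack AATAAA in the last 40 bases, as do 13.8% of the 2738 transcripts of the table that the annotation holds. Gapdhs and the somatic genes, by contrast, hold AATAAA, which 63.0% of those transcripts have, and 23.2% have neither hexamer. The other Ldhc transcripts (ENSMUST00000210585, ENSMUST00000211784) and the third Gapdhs transcript (ENSMUST00000074758) are annotated with ends that hold neither. An annotated end is not a measured cleavage site.

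The promoters of the germ-cell isozymes are shown because their reads moved together after busulfan, as given below. Each window runs from 180 bases before to 20 after a RefSeq transcription start on GRCm38.p6, with GGGCGG (GC box), TGACGT (the core of a cAMP response element) and CCAAT, read on both strands, in capitals. The windows are chr7:46861083-46861282 (plus strand) for Ldhc, chr17:40208590-40208789 (minus) for Pgk2 and chr7:30743662-30743861 (minus) for Gapdhs.
Ldhc: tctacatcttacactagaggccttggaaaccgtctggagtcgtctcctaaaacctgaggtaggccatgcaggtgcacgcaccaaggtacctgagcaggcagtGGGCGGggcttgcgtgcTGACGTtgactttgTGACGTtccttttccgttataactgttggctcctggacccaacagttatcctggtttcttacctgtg
Pgk2: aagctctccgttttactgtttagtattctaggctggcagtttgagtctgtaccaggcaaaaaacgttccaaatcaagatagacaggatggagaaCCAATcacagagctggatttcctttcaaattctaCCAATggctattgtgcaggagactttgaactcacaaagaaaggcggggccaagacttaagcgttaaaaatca
Gapdhs: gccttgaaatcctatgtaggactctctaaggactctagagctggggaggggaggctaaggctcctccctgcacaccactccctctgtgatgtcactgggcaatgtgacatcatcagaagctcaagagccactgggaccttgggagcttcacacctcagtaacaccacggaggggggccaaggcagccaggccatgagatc

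The Ldhc window held TGACGT at 2 places and GGGCGG at 1, the Pgk2 window CCAAT at 2 places, and the Gapdhs window none of these letters. Of 32851 mouse promoter windows of this length, 6.25% held TGACGT, 31.8% GGGCGG and 29.2% CCAAT on either strand. The 3 windows share no motif of the set. The window of Ldha, whose reads moved with theirs, held TGACGT and GGGCGG, as that of Ldhc did. Ldhc and Gapdhs have 2 windows each, of which 1 was taken. For Gapdhs it lies at the start of the protein-coding ENSMUST00000182634, not at that of its most read transcript.

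The listed transcripts held 29574 to 129074 reads a library, with dcat vehicle replicate 1 the shallowest. Library totals and CPM cover these reads only, and reads of transcripts that are not listed are left out. The summed level of 14 late spermatid markers, all of them read, ran from 93291 to 116832 CPM (reads normalised to library size with edgeR's TMM factors) in the vehicle libraries, was 9175 and 12658 after busulfan in wt, and was 21307 and 38397 after busulfan in dcat. Of the markers of spermatocytes (5 of 10 read) the sum was 3483 to 4078 after vehicle and 439 to 1396 after busulfan, and of round spermatids (6 of 9 read) 2581 to 2869.5 and 15.1 to 765. The sums of Leydig cells (9 of 10) and Sertoli cells (9 of 11) were at most 7236 and 5917 after vehicle and at least 23629.8 and 23661 after busulfan. Each marker that was read had reads in at least 1 busulfan library. In whole testes, fewer cells of a type and less RNA per cell cannot be told apart.

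The germ-cell isozymes made up most member reads after vehicle and a minority after busulfan. In wt their share of member reads was 79.4% and 84.7% after vehicle and 11.3% and 12.9% after busulfan. In dcat it was 77.8% and 83.3%, then 26.3% and 42.6%. All members together held 1.36% to 1.67% of a library's reads of listed transcripts after vehicle and 0.653% to 0.84% after busulfan. Their share of all sequenced reads would be smaller.

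Ldhc was the most read member in every vehicle library. Summed over its transcripts, Ldhc in wt stood at 7134 and 9372 CPM after vehicle (369 and 658 reads) and at 254 and 371 CPM after busulfan (18 and 38 reads). In dcat it stood at 7310.4 and 8963 CPM (227 and 1124 reads), then at 812 and 1939 CPM (51 and 190 reads). The vehicle mice were all above the busulfan mice, and among the latter both dcat mice were above both wt mice.

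Gapdhs followed the same order, from lower levels. In wt it had 3267 and 3233 CPM after vehicle and 141 and 166 CPM after busulfan. In dcat it had 1707 and 3086 CPM, then 669 and 1092 CPM. Only 10 and 17 reads of Gapdhs were left in the wt busulfan libraries.

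Pgk2 was lower after busulfan as well. In wt it stood at 1353 and 1923 CPM after vehicle and at 296 and 409.5 CPM after busulfan. In dcat the levels were 1031 and 1754 CPM, then 573 and 500.0 CPM. Here too the vehicle and busulfan mice did not overlap, and the dcat busulfan mice were above the wt ones.

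**Figure D1:**
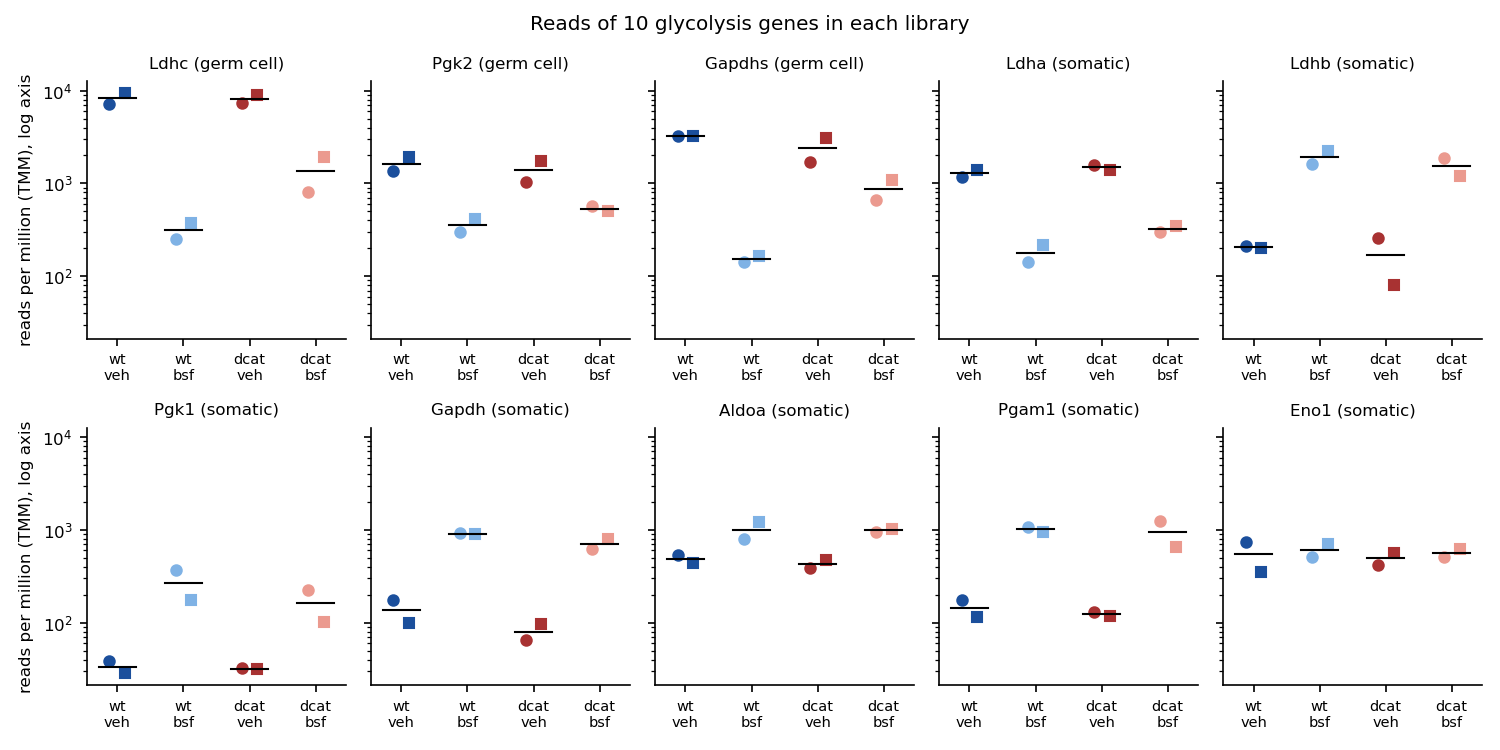
CPM (TMM-scaled, log axis) of the 10 genes, summed over transcripts, in each of the 8 libraries; circles are replicate 1, squares replicate 2, and lines group means (2 mice each). Ldhc, Pgk2, Gapdhs and Ldha lie lower after busulfan, Ldhb, Pgk1, Gapdh, Aldoa and Pgam1 higher, and Eno1 overlaps.

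The effect of busulfan was tested for each transcript with edgeR's quasi-likelihood test on the counts of all 8 libraries, with Benjamini-Hochberg adjustment over the 2783 transcripts and a threshold of 0.05. In wt mice, 9 of the 19 member transcripts were lower and 6 higher, against 38.3% lower and 35.4% higher of all transcripts. The 7 germ-cell transcripts were all among those lower, the Ldhc transcript ENSMUST00000211784 on vehicle reads of replicate 2 alone. In dcat mice 7 were lower and 7 higher, against 31.4% and 31.3% of all transcripts, and 5 of the 7 germ-cell transcripts were lower. Over both genotypes 9 were lower and 7 higher, against 39.6% and 40.2%.

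The main Ldhc transcript (ENSMUST00000014545) was 24.4-fold lower after busulfan in wt (log2 fold change -4.61, SE 0.44, edgeR adjusted p = 5.29e-08) and 4.72-fold lower in dcat (-2.24, SE 0.38, adjusted p = 9.64e-05). The Gapdhs transcript with the most reads (ENSMUST00000182067) was 25.5-fold lower in wt (-4.67, SE 0.47, adjusted p = 6.68e-08) and 3.71-fold lower in dcat (-1.89, SE 0.38, adjusted p = 0.000361). For Pgk2 (ENSMUST00000033585) the falls were 4.86-fold (-2.28, SE 0.38, adjusted p = 1.54e-05) and 2.62-fold (-1.39, SE 0.37, adjusted p = 0.00292). The Pgk2 call in dcat was lost without dcat vehicle replicate 2 (-0.86, adjusted p = 0.112). The median log2 fold change of the 7 germ-cell transcripts was -4.67 in wt and -1.89 in dcat, beside 0.09 and 0.14 over all transcripts.

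The minor transcripts carried fewer reads. The Ldhc transcript ENSMUST00000211784 had 28 reads in the dcat vehicle libraries and none after busulfan. In wt it had 13 reads in vehicle replicate 2 and none in vehicle replicate 1. Against a floor of 3 reads in each busulfan library, its mean vehicle level was at least 6.96-fold higher in dcat and 2.52-fold in wt. In wt this value rests on vehicle replicate 2 and is no bound for replicate 1. With this transcript at these values, the median of the germ-cell transcripts was -4.61 in wt and -1.89 in dcat.

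The Gapdhs transcript with the most reads is annotated as a target of nonsense-mediated decay and is 675 nt long, against 1457 and 1368 nt for the protein-coding ones. A direct RNA read starts at the tail and can stop early, and the 3 Gapdhs annotations share their 3′ exons in part, so the split of Gapdhs reads between them is uncertain. The protein-coding Gapdhs transcripts were lower in wt, ENSMUST00000182634 by 14.2-fold and ENSMUST00000074758, with 70 against 3 reads, by a ratio of library shares of 34.5 (95% counting interval 11.3 to 171). In dcat their changes of -0.71 and -1.06 did not pass (edgeR adjusted p = 0.186 and 0.111), and both passed as lower without dcat busulfan replicate 2 or without dcat vehicle replicate 1.

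Ldha, grouped here with the somatic genes, moved with the germ-cell isozymes. In wt it stood at 1179 and 1382 CPM after vehicle and at 141 and 215 CPM after busulfan. In dcat it stood at 1578 and 1411 CPM, then at 303 and 347 CPM. Its transcript ENSMUST00000048209 was 8.06-fold lower in wt (log2 fold change -3.01, SE 0.48, adjusted p = 8.75e-06, edgeR) and 3.89-fold lower in dcat (-1.96, SE 0.43, adjusted p = 0.000757). The second Ldha transcript fell as well, by 2.74 and 2.30 on the log2 scale.

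Ldhb, which encodes the heart-type subunit of lactate dehydrogenase, did the opposite. In wt it rose from 213 and 199 CPM after vehicle to 1606 and 2252 CPM after busulfan, and in dcat from 258 and 79.7 CPM to 1895 and 1204 CPM. The rise was 8.88-fold in wt (log2 fold change 3.15, SE 0.45, edgeR adjusted p = 2.43e-06) and of similar size in dcat (log2 3.59, SE 0.49, adjusted p = 1.45e-05). Pgam1, the phosphoglycerate mutase of most tissues, rose 6.73-fold and 7.73-fold (adjusted p = 1.46e-05 and 5.95e-05).

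Gapdh and Pgk1 had few reads in the vehicle libraries. Gapdh in wt had 9 and 7 reads after vehicle and 65 and 93 after busulfan, and in dcat 2 and 12, then 39 and 78. Its main transcript (ENSMUST00000117757) was 7.31-fold higher in wt (log2 2.87, SE 0.49, adjusted p = 1.87e-05, edgeR) and 8.34-fold higher in dcat (3.06, SE 0.51, adjusted p = 7.98e-05). Pgk1 had 2 reads in each vehicle library of wt, against 26 and 18 after busulfan, and in dcat 1 and 4, then 14 and 10. Its 44 against 4 reads in wt corresponded to a ratio of library shares of 7.45, with a 95% counting interval of 2.71 to 28.5. In dcat Pgk1 was 4.76-fold higher (edgeR adjusted p = 0.0102), a call lost without dcat busulfan replicate 1 (adjusted p = 0.0809) or dcat vehicle replicate 2 (0.184) and with DESeq2 (0.0922).

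Aldoa and Eno1, an aldolase and an enolase, changed less. The Aldoa transcript ENSMUST00000032934 was 3.92-fold higher in wt and 2.41-fold higher in dcat (edgeR adjusted p = 0.0019 and 0.0199). These calls were lost without wt busulfan replicate 2 (adjusted p = 0.0529) and without dcat busulfan replicate 2 (0.0608), and that in dcat also with DESeq2 (0.144). Of its other transcripts, ENSMUST00000087566 passed in dcat alone (log2 1.34, lost without dcat busulfan replicate 2 or dcat vehicle replicate 2), and ENSMUST00000106348 passed in neither genotype. The Eno1 transcripts did not pass, with log2 fold changes of 0.77 and -0.56 in wt and 0.41 and -0.03 in dcat. The median of the 12 somatic transcripts was 1.30 in each genotype.

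The annotation holds transcripts of other genes that align to Gapdh (61 genes), Eno1 (6), Pgk1 (4), Aldoa (3), Pgam1 (3) and Ldhb (1) over at least 300 bases at 90% identity or more. None of these are rows of the table, and reads could be shared with them, so the levels of these somatic genes carry that uncertainty. No such transcript was found for Ldhc, Pgk2, Gapdhs or Ldha.

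**Figure D2:**
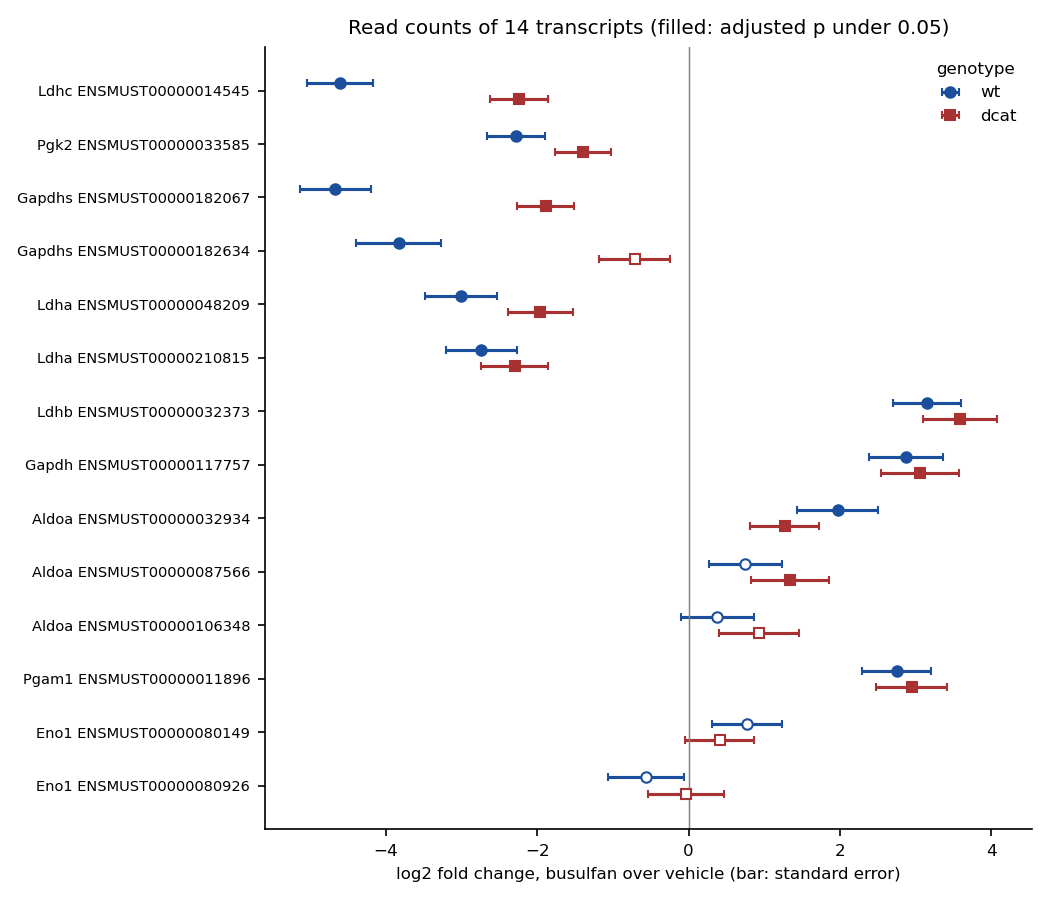
Log2 fold change of reads after busulfan over vehicle for 14 member transcripts in wt (blue circles) and dcat (red squares), with standard errors; filled symbols have an adjusted p under 0.05. Left out are 5 transcripts with 4 reads or fewer in a group (minor ones of Ldhc, Gapdhs and Gapdh, and Pgk1); the germ-cell and Ldha transcripts lie below 0, and those of Ldhb, Gapdh, Aldoa and Pgam1 above.

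Within a library, the ratio of a germ-cell isozyme to its somatic partner needs no scaling factor. After vehicle Gapdhs outnumbered Gapdh 17.8-fold and 30.3-fold in wt and 21.4-fold and 31.0-fold in dcat (0.5 added to each count). After busulfan the ratio was 0.160 and 0.187 in wt, so that Gapdh was the more read gene, and 1.08 and 1.37 in dcat. The mean log2 ratio went from 4.61 ± 0.39 to -1.12 ± 1.63 (SD, n = 4 each), a 53.4-fold fall (two-sided exact permutation test, p = 0.0286, the smallest that 4 against 4 mice allow).

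The ratio of Pgk2 to Pgk1 fell as well. In wt it was 28.2 and 54.2 after vehicle and 0.811 and 2.30 after busulfan, and in dcat 21.7 and 49.0, then 2.52 and 4.71. The vehicle and busulfan mice did not overlap, and the mean log2 ratio fell from 5.16 ± 0.63 to 1.12 ± 1.05 (exact permutation test, p = 0.0286, n = 4 each). The Pgk1 counts of 1 to 4 in vehicle libraries make the vehicle ratio imprecise.

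Ldhc and Ldha fell together, and their ratio overlapped between treatments. In wt it was 6.01 and 6.75 after vehicle and 1.76 and 1.71 after busulfan, and in dcat 4.60 and 6.34, then 2.64 and 5.52. The mean log2 ratio was 2.55 ± 0.24 after vehicle and 1.36 ± 0.79 after busulfan (exact permutation test, p = 0.0571, n = 4 each). Without dcat busulfan replicate 2 the groups did not overlap and the p reached the smallest possible, 0.0286. With labels permuted only within a genotype the smallest p is 0.0556, so that no pair could pass there. The p-values of the 3 pairs are given unadjusted.

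**Figure D3:**
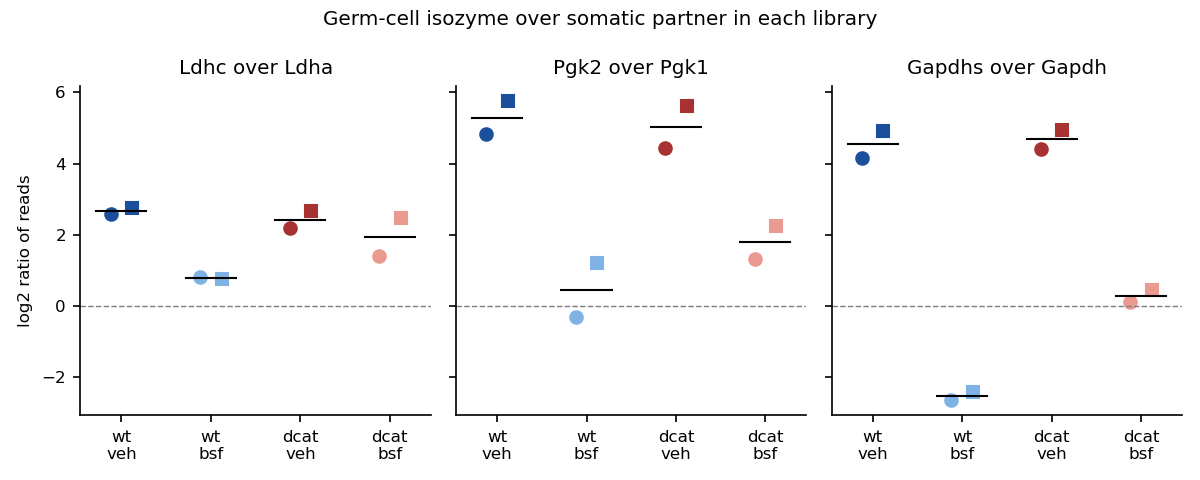
Log2 ratio of reads of the germ-cell isozyme over its somatic partner in each library; circles are replicate 1, squares replicate 2, lines are group means, and the dashed line marks equal reads. Gapdhs over Gapdh drops below 0 in wt busulfan, and the dcat busulfan mice lie above the wt busulfan mice in each panel.

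The effect of genotype was not detectable after vehicle. No member passed for dcat against wt (edgeR, 0 of 19 transcripts, 0.0% of all transcripts, and 0 members with DESeq2), and no member had an unadjusted p under 0.05, against 65 of all transcripts. The main transcripts of Ldhc, Pgk2 and Gapdhs differed by -0.14 (SE 0.36), -0.18 (SE 0.35) and -0.04 (SE 0.35) on the log2 scale. Their 95% intervals were -0.87 to 0.60, -0.90 to 0.54 and -0.76 to 0.69.

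After busulfan, Ldhc and Gapdhs were higher in dcat than in wt testes. The Ldhc main transcript was 4.69-fold higher (log2 2.23, SE 0.42, edgeR adjusted p = 0.0033), with 44 and 175 reads in dcat against 17 and 35 in wt. The Gapdhs transcripts ENSMUST00000182067 and ENSMUST00000182634 were 6.68-fold and 4.92-fold higher (adjusted p = 0.00247 and 0.025), and ENSMUST00000074758 (27 against 3 reads) by a ratio of 10.3 (counting interval 3.18 to 53.2, adjusted p = 0.0358). These 4 are all the member calls, against 5.39% of all transcripts higher. With the replicate number as a block, the second Ldhc transcript (log2 2.61, adjusted p = 0.0547 without the block) passed too, making 5, against 6.9% of all transcripts.

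Pgk2 and the somatic genes did not pass in that comparison. Pgk2 was 1.64-fold higher (log2 0.71, SE 0.39, 95% interval -0.11 to 1.52, edgeR adjusted p = 0.347), and Ldha 2.25-fold (1.17, SE 0.54, adjusted p = 0.221). The other somatic transcripts lay between -0.63 and 0.75, with the second Ldha transcript the highest of them. The Ldhc and Gapdhs calls rest on 2 mice a group. A group from which a mouse was left out held 1 mouse, assumed in these and the other edgeR and limma fits to vary like the mice of the other groups: 1 call was left without dcat busulfan replicate 2, none without wt busulfan replicate 1 and 1 without wt busulfan replicate 2.

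Marker sums also stood apart between the genotypes after busulfan. In the dcat busulfan libraries against the wt ones, late spermatid markers summed to 21307 and 38397 CPM against 9175 and 12658, round spermatid markers to 423 and 765 against 15.1 and 173, and spermatocyte markers to 602 and 1396 against 439 and 476. Leydig cell markers summed to 28464 and 23629.8 CPM against 45252 and 49348, and Sertoli cell markers to 32936 and 23661 against 36517 and 35928. The Leydig sum includes Insl3, which the authors propose as a TENT5C target, so that sum is no measure of cell number alone. Erythroid markers (2 of 4 read, both globins) summed to 0 and 20.7 CPM against 924 and 771. The part of these cell types in the Ldhc and Gapdhs differences was not tested.

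Whether busulfan acted differently in the genotypes was tested by the interaction. The Gapdhs transcript ENSMUST00000182067 passed (log2 2.78, SE 0.62, edgeR adjusted p = 0.0409), against 0.323% of all transcripts with a higher interaction. The Ldhc main transcript had an interaction of 2.37 (SE 0.55) with an adjusted p just above 0.05, and Pgk2 one of 0.89 (SE 0.53, adjusted p = 0.452). With the replicate block 4 member transcripts passed, 3 of Gapdhs and 1 of Ldhc, against 4.38% of all transcripts. Summed per gene, Gapdhs (2.91, adjusted p = 0.00491) and Ldhc (2.15, adjusted p = 0.0387) passed, against 1.43% of genes. No member passed when any 1 of 6 of the 8 mice was left out, dcat busulfan replicate 1 and dcat vehicle replicate 2 being the exceptions.

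The tails of Ldhc and Pgk2 stood differently after busulfan. The mean Ldhc tail in wt was 140.9 and 138.3 nt after vehicle and 148.1 and 141.7 nt after busulfan. In dcat it was 137.8 and 149.3 nt, then 140.4 and 130.2 nt. The Ldhc means of 3 of the 4 busulfan libraries lay within the vehicle range, and that of dcat busulfan replicate 2 below it.

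The mean Pgk2 tail in wt was 157.9 and 166.4 nt after vehicle and 73.65 and 64.84 nt after busulfan. In dcat it was 158.4 and 172.4 nt, then 83.07 and 128.8 nt. Each busulfan mouse had a shorter mean Pgk2 tail than each vehicle mouse, and both dcat busulfan mice were above both wt busulfan mice.

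Gapdhs tails lay with those of Pgk2. Their mean in wt was 162.5 and 173.5 nt after vehicle and 88.2 and 117.0 nt after busulfan (10 and 17 reads), and in dcat 154.7 and 170.3 nt, then 97.96 and 141.1 nt. In the dcat busulfan group, replicate 2 had the longer tails of both Pgk2 and Gapdhs, and also the higher late spermatid marker sum, whose part in this was not tested.

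Mean tails per transcript and library were compared with limma, for transcripts with at least 10 reads in every library of the comparison and with adjustment over all of these. After busulfan Pgk2 tails fell by 92.89 nt in wt (SE 7.56, limma adjusted p = 6.87e-06) and changed by -59.47 nt in dcat (SE 13.91, adjusted p = 0.0186). Of the 6 member transcripts tested in wt, the other that passed was the Aldoa transcript ENSMUST00000106348 (-43.2 nt, SE 12.35, adjusted p = 0.0168, not called without wt busulfan replicate 2 or wt vehicle replicate 1), against 39.1% of all transcripts. In dcat Pgk2 alone passed of 4 tested, against 19.5%, and over both genotypes Pgk2 passed of 2 tested, against 54.0%. With the block the counts were 3 in wt, with an Eno1 transcript added, and 2 in dcat, with the Gapdhs transcript added, against 38.7% and 30.6%.

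The Ldhc main transcript changed by 3.48 nt in wt (SE 4.46, 95% interval -6.29 to 13.25, limma adjusted p = 0.583) and by -10.16 nt in dcat (SE 6.01, interval -23.57 to 3.25, adjusted p = 0.241). In dcat the Ldhc change passed as shorter when means were weighted by reads (-18.18 nt) and without dcat busulfan replicate 1 (-18.55 nt). Over all transcripts the median change was -19.93 nt in wt mice, against -17.23 nt in dcat mice. The median tail over all reads of a library was 137.9 to 151.9 nt after vehicle and 94.32 to 103.3 nt after busulfan. This fall of the median over reads was larger than the median change over transcripts. When each library was centred on its median over reads, Ldhc tails passed as longer in both genotypes. They changed by 52.79 nt in place of 3.48 nt in wt and by 35.94 nt in place of -10.16 nt in dcat. Somatic genes passed as longer too: Ldhb in wt (47.90 nt, limma adjusted p = 7.58e-05) and the Ldha transcript ENSMUST00000210815 in dcat (39.28 nt, adjusted p = 0.0212). Pgk2 passed as shorter in wt, and the Pgk2 call in dcat was lost. The Aldoa call in wt was lost as well, with a change of 6.11 nt in place of -43.2 nt, and 7 of the 10 member values of both genotypes changed sign to positive. The Pgk2 call in dcat was lost too when limma was run without the trend of variance on read number.

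**Figure D4:**
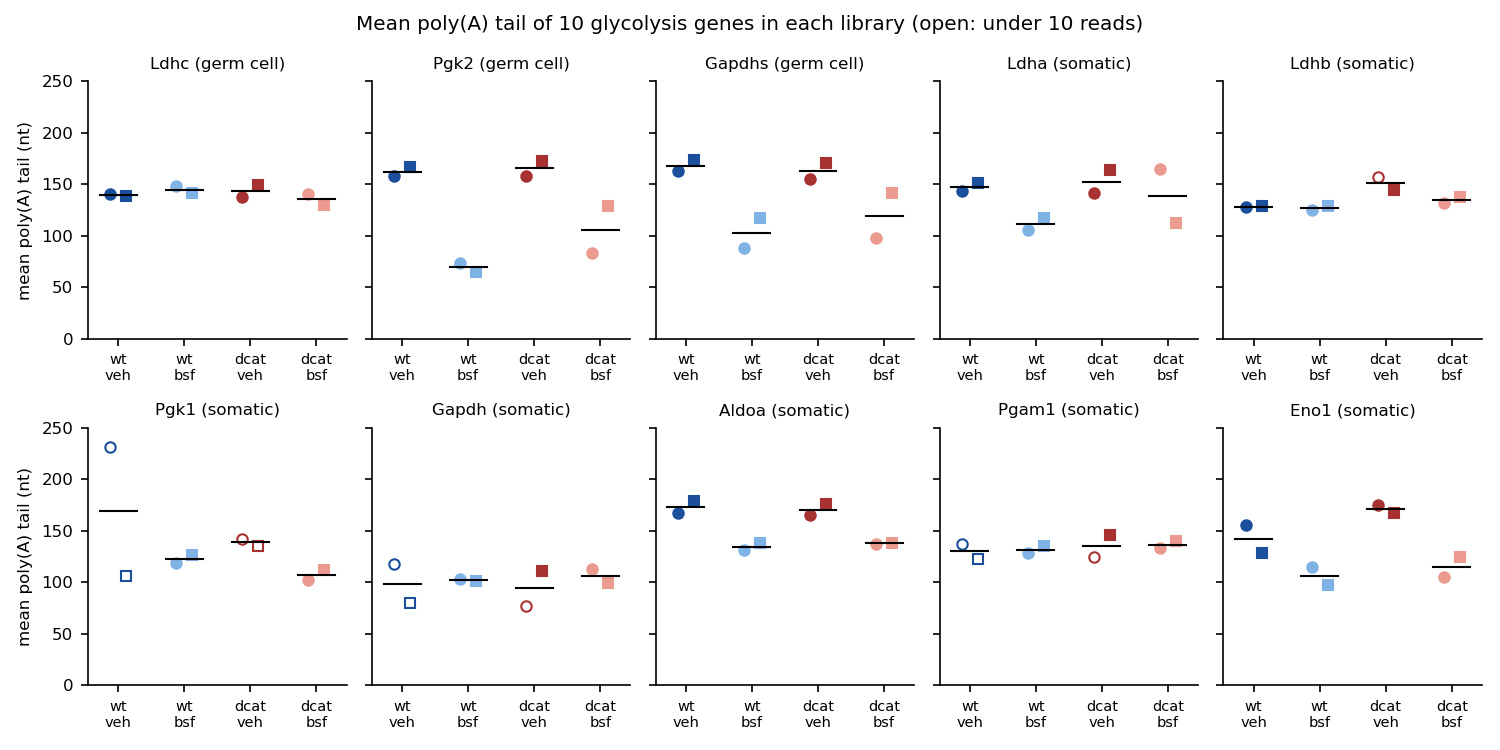
Mean poly(A) tail in nt of all reads of each of the 10 genes in each library; circles are replicate 1, squares replicate 2, open symbols rest on under 10 reads, and lines are group means. Pgk2 and Gapdhs tails are lower after busulfan, and the 8 Ldhc means lie between 130.2 and 149.3 nt.

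The main Gapdhs transcript had too few reads in wt busulfan to be tested, and in dcat its change of -37.71 nt did not pass (SE 13.89, limma adjusted p = 0.0831). Averaged over all its reads, Gapdhs changed by -65.44 nt in wt (SE 8.72, limma adjusted p = 0.000168), which passed. In dcat the change was -42.99 nt (SE 13.65, adjusted p = 0.0627), which did not pass. The wt busulfan means rest on 10 and 17 reads, with SDs over reads of 62.2 and 69.6 nt. Means were not weighted by reads, so the SE in wt may be too small. At this gene level 5 of 7 members passed as shorter in wt (Pgk2, Gapdhs, Ldha, Aldoa and Eno1), against 41.7% of genes, and 3 of 6 in dcat (Pgk2, Aldoa and Eno1), against 19.8%. Ldha tails changed by -36.41 nt in wt (adjusted p = 0.00596) and by -14.12 nt in dcat, where its busulfan mice stood at 164.8 and 112.3 nt.

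Among the somatic genes, Ldhb tails in wt were 127.7 and 129.1 nt after vehicle and 125.4 and 128.6 nt after busulfan. Their difference was -1.41 nt (SE 6.32, 95% interval -15.27 to 12.45). Aldoa tails went from 166.9 and 178.8 nt to 131.0 and 137.7 nt in wt, and Eno1 tails from 155.2 and 128.5 nt to 114.8 and 96.98 nt. Gapdh tails after busulfan, 99.43 to 112.4 nt, were among the shortest of the members, and with 2 to 12 reads a vehicle library they could not be tested.

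Reads with tails of 30 to 120 nt were counted as short. The short share of Pgk2 in wt was 27.1% and 17.8% after vehicle and 76.2% in each busulfan library, and in dcat 18.8% and 13.2%, then 66.7% and 40.8%. The short share of Ldhc in wt was 36.9% and 39.8%, then 27.8% and 31.6%, and in dcat 39.2% and 30.4%, then 39.2% and 43.7%. The Pgk2 shares of the treatments did not overlap, and those of Ldhc did. In wt busulfan the Wilson 95% intervals were 54.9% to 89.4% and 61.5% to 86.5% for Pgk2 and 12.5% to 50.9% and 19.1% to 47.5% for Ldhc, and these cover counting error only. Tails of 120 to 210 nt made up 55.7% and 62.2% of Pgk2 reads after vehicle in wt and 14.3% in each busulfan library.

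**Figure D5:**
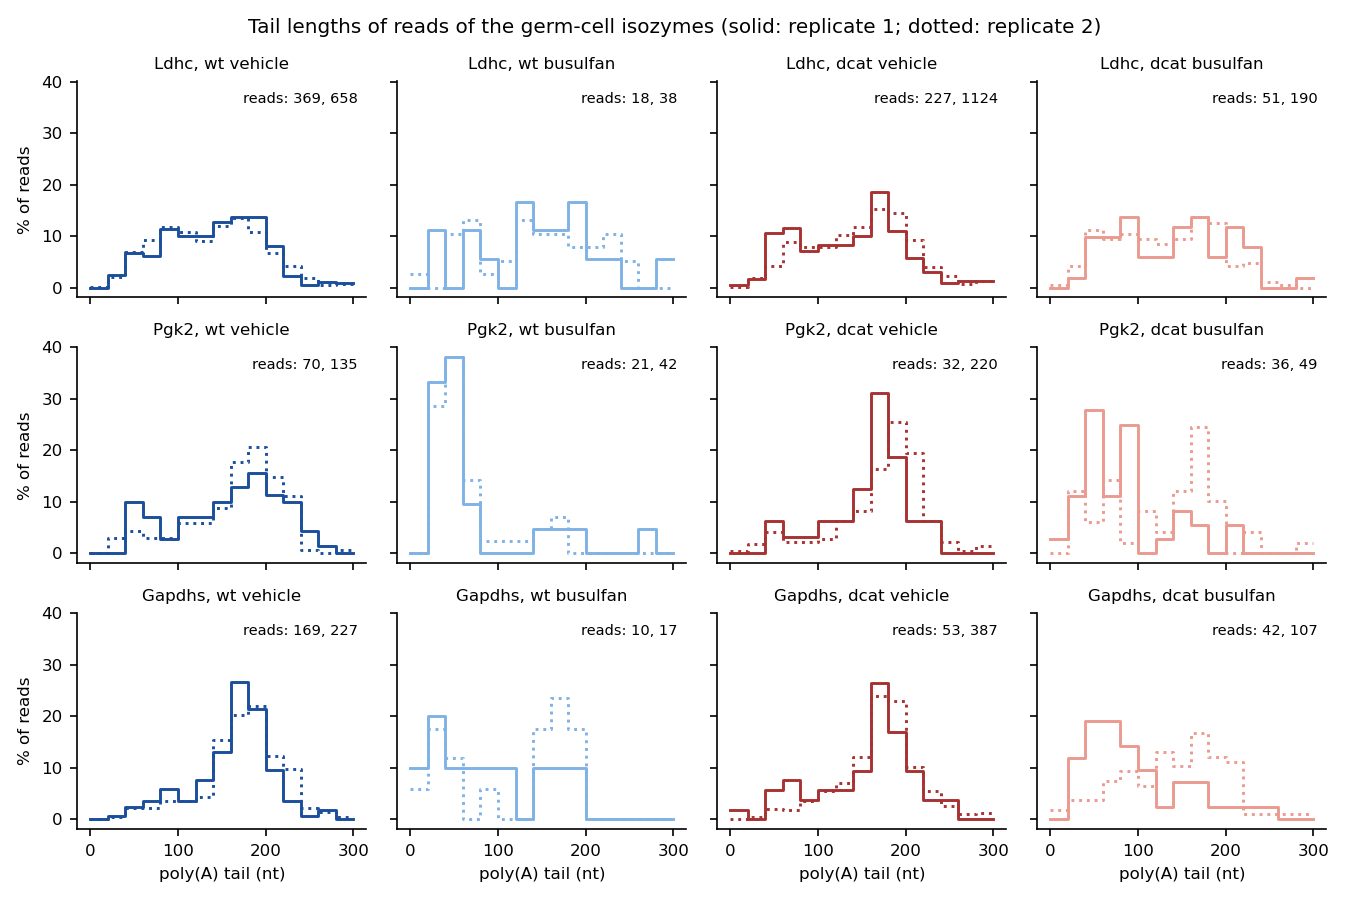
Share of reads (%) by poly(A) tail length in bins of 20 nt for Ldhc, Pgk2 and Gapdhs in each group, with replicate 1 solid, replicate 2 dotted, and read numbers in each panel; tails of 300 nt or more are in the last bin. In wt busulfan, 76.2% of Pgk2 reads had tails of 30 to 120 nt, and Ldhc reads stayed spread over the range seen after vehicle.

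Set side by side within a library, mean Pgk2 tails were 17 to 28 nt longer than those of Ldhc in the 4 vehicle libraries. After busulfan the difference was -74.4 and -76.9 nt in wt and -57.4 and -1.46 nt in dcat. Ldhc tails exceeded the mean over all reads of the library by 15.7 to 36.0 nt after busulfan and lay within 4.86 nt of it after vehicle. That mean itself fell, in wt from 138.7 and 140.7 nt after vehicle to 112.1 and 115.4 nt after busulfan. Ldhb tails in wt, given above, also went from below that mean to above it. These differences were noticed in the data and are given without a test.

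The tail difference between isozymes could be tested for Ldhc and Ldha, since Pgk1 had under 10 reads in every vehicle library and Gapdh in 3 of the 4. Ldhc minus Ldha lay between -14.7 and -2.7 nt after vehicle. It was 43.0 and 24.5 nt after busulfan in wt, and -24.3 and 17.9 nt in dcat. The mean difference went from -8.54 ± 6.32 to 15.26 ± 28.46 nt (SD, n = 4 each, exact permutation test, p = 0.171), and without dcat busulfan replicate 1 the difference between treatments was 37.01 nt (p = 0.0286). After busulfan Pgk2 minus Pgk1 was -44.8 and -61.7 nt in wt and -18.8 and 16.9 nt in dcat.

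Genotype changed no member tail past the threshold. After vehicle 0 of 6 member transcripts passed (limma; 1 at an unadjusted p under 0.05, Ldhc with 7.89 nt longer tails in dcat), against 0.139% of all transcripts. After busulfan 0 of 11 passed, against 1.35%, and 1 was under 0.05 unadjusted. That was Pgk2, with tails 36.68 nt longer in dcat than in wt (SE 12.65, 95% interval 9.95 to 63.41, adjusted p = 0.308), a difference that passed when medians replaced means and when dcat busulfan replicate 1 was left out. The interaction passed for 0 of 2 members (0 under 0.05 unadjusted), against 0.885%, with 33.41 nt for Pgk2 (SE 18.45) and -13.64 nt for Ldhc (SE 7.90).

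Other genes of glycolysis, gluconeogenesis, pyruvate and lactate handling and the pentose phosphate shunt were taken from a list of 56, of which 23 were in the table with 32 transcripts. In wt 15 of these were lower after busulfan and 10 higher, beside 38.3% and 35.4% of all transcripts. In dcat 11 were lower and 10 higher, beside 31.4% and 31.3%. Several with a germ-cell form or germ-cell use fell: Pgam2, a phosphoglycerate mutase (log2 -4.02 in wt, -2.97 in dcat), Ldhal6b, a lactate dehydrogenase-like gene (-3.94 and -2.22), Pdha2, the germ-cell pyruvate dehydrogenase subunit (-3.84 and -2.86), and Aldoart2, an aldolase retrogene (-4.70 and -2.30). Those that rose included Pkm, a pyruvate kinase (1.65 and 1.25), Me1, a malic enzyme (1.66 and 1.35), Gpd1 (2.92 and 2.40), and Slc16a1, a monocarboxylate transporter (4.29 and 3.03).

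Of the same list 3 of 32 transcripts were higher in dcat than in wt after busulfan, beside 5.39% of all transcripts. They belong to Slc2a5, a fructose transporter (0 reads in wt, 2 and 14 in dcat, edgeR adjusted p = 0.0174), Gpd2 (0 in wt, 4 and 5 in dcat, adjusted p = 0.0299) and Tpi1, triosephosphate isomerase (log2 1.53, adjusted p = 0.0475). The second transcripts of Gpd2 (log2 2.38, edgeR adjusted p = 0.153) and Tpi1 (0.1, adjusted p = 0.961) did not pass. In tails 3 of 7 tested were shorter after busulfan in wt (limma), beside 39.1% of all transcripts tested. They were those of Hk1 (-65.3 nt), Bsg (-67.5 nt) and the second Tpi1 transcript (-38.7 nt). In dcat 0 of 4 passed, with 1 under 0.05 unadjusted, beside 19.5%.

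Among 661 transcripts with at least 200 reads, those whose log2 CPM followed Ldhc most closely over the 8 libraries were Tmco2 (Pearson r = 0.9984), Spa17 (0.9964), Hmgb4 (0.9959), Cfap206 (0.9956) and 1700129c05rik (0.9948). Those closest to Gapdh were Hsp90b1 (0.9884), Rpl6 (0.9825), Rpl23 (0.9789), Rps25 (0.9789) and Hspa5 (0.9782). The 8 points share the split by treatment, so that any transcript that differs between treatments correlates with one or the other.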

How the data were processed

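Per the labels, poly(A) RNA of whole testes was sequenced on Nanopore R9 chips in 2 multiplexed libraries (replicates 1 and 2), each with 1 mouse of every group. Reads were aligned by the authors with Minimap2 to the GENCODE vM17 transcriptome, tails were called with Nanopolish, and libraries were demultiplexed with Deeplexicon; the submitters' processing notes also name minimap2 2.20-r1061, SAMtools and mm10. The deposited matrix holds raw read counts per transcript, and the deposited poly(A) file a tail length in nt for each read. Only transcripts above the authors' read minimum are listed. The authors' DESeq2 comparisons (fold changes and p-values of dcat against wt) were not used.

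Counts were tested with edgeR 4.0.16 (TMM, quasi-likelihood, 4 groups) and mean tails with limma 3.58.1 (R 4.3.3; at least 10 reads in each library). Both were first run on simulated data. Every transcript's count equalled its number of tails. Per-sample reads of the listed transcripts were 29574 to 129074, and precision is limited by 2 mice per group. The Wilson and counting intervals and the floors (3 reads) cover counting error only. The intervals of the edgeR and limma fits also take in the spread between libraries. Since each number marks a shared multiplexed library, the replicate block was fitted as an alternative; the 6 correlations of replicate deviations over 884 transcripts ran from -0.154 to 0.338. Of the table's transcripts, 2738 were found in GENCODE vM21. Minimap2 2.31 was used to search for near-identical transcripts.

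Members and lists were chosen with earlier results of these data known. Named were the 10 genes, a 56-gene pathway list by counts with examples, and the 5 nearest correlates of Ldhc and of Gapdh. Alternatives covered the tool (DESeq2 1.42.0), scaling, filters, weights, medians, the block, gene sums and leaving out each mouse. Protein sequences were not analysed here.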

Additional observations from a re-analysis of the deposited data

Results flagged for a closer look

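By the interaction test, the effect of busulfan differed between genotypes for Gapdhs and, summed over its transcripts only, for Ldhc. Of 19 member transcripts 1 passed, against 0.323% of all transcripts, and of 10 genes 2, against 1.43%. For the Gapdhs transcript ENSMUST00000182067 the interaction was 2.78 on the log2 scale (SE 0.62, edgeR adjusted p = 0.0409), with the fall after busulfan smaller in dcat. Summed over transcripts it was 2.91 for Gapdhs (SE 0.52, adjusted p = 0.00491) and 2.15 for Ldhc (SE 0.51, adjusted p = 0.0387). Both dcat busulfan mice had more reads of either gene, scaled to library size, than both wt busulfan mice. The main Ldhc transcript did not pass, and the Gapdhs transcript call depended on single mice, as given above. Late spermatid marker sums were also higher in the dcat busulfan mice, and their part in this was not tested.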

How the results depend on the processing

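With edgeR, 15, 14 and 16 of the 19 member transcripts were called after busulfan in wt, in dcat and over both genotypes. Of all 2783 transcripts, 2053, 1746 and 2221 were called in the same comparisons. For dcat against wt after busulfan and for the interaction, 162 and 9 of all transcripts were called. Summed per gene, 9 of 10 genes, all but Eno1, were called for busulfan against vehicle in wt, in dcat and over both genotypes. DESeq2 called 9 transcripts in dcat. Leaving out 1 mouse gave 13 to 14, 10 to 16 and 15 to 18 calls. For dcat against wt after busulfan (4 calls), DESeq2 and gene sums gave 2 each, the replicate block 5, and leaving out a mouse 0 to 5. For the interaction (1 call), RLE scaling, filterByExpr and the replicate block gave 4 each, DESeq2 and gene sums 2 each, and leaving out a mouse 0 to 4; the cause was not tested. Of all transcripts, 0.323% had a higher interaction in the main fit and 4.38% with the replicate block, and 1.43% of genes with gene sums. Shares of all transcripts under RLE scaling, filterByExpr and DESeq2 are not given here. Their member counts alone therefore do not show a stronger member result. After vehicle no alternative gave a genotype call.

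For tails in wt (2 calls), a minimum of 20 reads gave 1 (of 1 tested), the methods' t-test 0 after adjustment (3 at an unadjusted p under 0.05), gene sums 5, the replicate block 3, and leaving out a mouse 1 to 4. In dcat (1 call), the methods' t-test gave 0 (0 unadjusted), limma without the trend 0 (1 unadjusted), centred libraries 2, the replicate block 2, gene sums 3, weights by reads 3, and leaving out a mouse 1 to 3. Over both genotypes (1 call) centred libraries gave 2, gene sums 4, and leaving out a mouse 1 to 4. For genotype after busulfan (0 calls), medians gave 1 and leaving out a mouse 0 to 1. The replicate block changed no other count of calls. Of all transcripts tested for tails, 209 of 527 were called in wt and 86 of 441 in dcat. Over both genotypes 186 of 339 were called, and for genotype after busulfan 16 of 1188.

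Centring each library on its median tail, which was lower after busulfan, turned 7 of 10 member values positive: in dcat Ldhc (35.94 nt), Gapdhs (8.39 nt) and Ldha ENSMUST00000210815 (39.28 nt), and in wt Ldhb (47.90 nt), Aldoa ENSMUST00000106348 (6.11 nt, its call lost) and both Eno1 transcripts (21.98 and 13.10 nt). In wt it gave 3 calls, Ldhc and Ldhb as longer and Pgk2 as shorter. In dcat Ldhc and Ldha passed as longer. The shift taken off by centring was larger than the median change over transcripts. Leaving out a mouse, which leaves 1 in its group with the spread taken from the other groups, turned these uncalled values: tails of Ldhb in wt (-2.99 to 0.17 nt), of Ldha ENSMUST00000210815 in dcat (-32.15 to 18.50 nt) and of Ldhc for genotype after busulfan (-14.14 to 2.64 nt), and log2 counts of Gapdhs ENSMUST00000182634 (-1.36 to 0.20) and ENSMUST00000074758 (-3.38 to 0.07) in dcat, of Aldoa ENSMUST00000106348 in wt (-0.18 to 0.85), and of Eno1 ENSMUST00000080926 in wt (-1.13 to 0.51) and dcat (-0.09 to 0.17; 0.05 with filterByExpr). With labels permuted within genotype the ratios kept their values (log2 -4.04 for Pgk2 over Pgk1, -5.74 for Gapdhs over Gapdh), but p was 0.0556, the smallest possible. Leaving out a mouse, Ldhc over Ldha ranged from -1.55 to -0.99 and the Ldhc minus Ldha tail difference from 14.55 to 37.01 nt. Over 18 member transcripts, 372 of 418 alternative values for counts and 121 of 152 for tails kept their direction and side of the threshold. Depth limits Pgk1 and Gapdh after vehicle and Gapdhs in wt after busulfan.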
